A study of Macaca mulatta with 6 samples.

Results

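Voltage-gated and potassium ion channel genes were examined in the adrenal gland across the day. Members were taken as every gene with a symbol starting with KCN or CACN, or with SCN and a digit, that a probe set named alone. The rule gave 97 of 11963 genes on such probe sets. Of these, 95 have the symbols of channel subunits and KCNQ1OT1 and KCNQ1DN are transcripts named for their place near KCNQ1. The members had 142 such probe sets in all, and the brightest on average stood for its gene. Symbols that appear only beside another gene on a probe set, such as KCNA6, were left out.

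Per the labels, the left adrenal of 6 ovariectomized female rhesus macaques was profiled on a human expression array, with 1 animal at each of 6 clock times. The animals had been caged singly for 3 months with 12 h of light and 12 h of dark, ate 2 meals a day, and were fasted for 12 h before collection. All were ovariectomized and none received another treatment in the labels. The 3 AM and 7 AM animals were 12 years old, the 11 AM animal 10 years and 37 days, the 3 PM animal 8 years and 106 days, the 7 PM animal 7 years and 82 days and the 11 PM animal 8 years and 70 days. Age and clock time therefore cannot be told apart in this design. A 24-h cosine fitted to age had an R2 of 0.947, with its peak at 6.23 h and its trough at 18.2 h.

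Ion channels set the membrane potential of both cortex and medulla. In the cortex, background potassium channels hold the cells of the zona glomerulosa near the potassium equilibrium, and depolarisation by angiotensin II or plasma potassium opens voltage-gated calcium channels that drive aldosterone synthesis. In the medulla, chromaffin cells fire sodium-dependent and calcium-dependent action potentials, and the calcium that enters releases adrenaline and noradrenaline. Inherited or somatic changes in KCNJ5, CACNA1D and CACNA1H are known from primary aldosteronism.

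The table holds intensities on a linear scale, and the arrays share a common trimmed mean, found from the values since the sources used here do not state a scaling. Pairs of arrays correlated between 0.916 and 0.928 on the log2 scale over all non-control probe sets, where probe sets are not independent replicates. Hybridisation controls were dimmer on the 3 AM array (geometric mean of 18 probe sets 542) and the 3 PM array (669) than on the remaining 4, where this mean ran from 948 to 1100. Adrenal identity held in the markers: all 11 steroidogenic genes on the array, among them CYP17A1 (28647 to 40394), lay above the median non-control probe set, as did 11 of 15 chromaffin genes. Of 5 kidney markers 2 lay above it, AQP2 and SLC12A3, and of 7 skeletal muscle markers 1 did.

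Most channel probe sets lay low on the array's scale. Of the 97 members, 33 (34% of members) had a mean log2(intensity + 1) no lower than 7.30, the median for non-control probe sets, where 59.9% of all genes did. Only these 33 entered the tests. The array carries human probes, so for a dim probe set a low transcript level and a mismatch between macaque RNA and human probes cannot be told apart, and the share above the median describes probe sets, not transcript abundance. The members nearest to that median were KCNK1 (log2 7.40) and KCNJ9 (7.47) above it and KCNJ14 (7.27) and KCNN1 (7.24) below it.

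**Figure D1:**
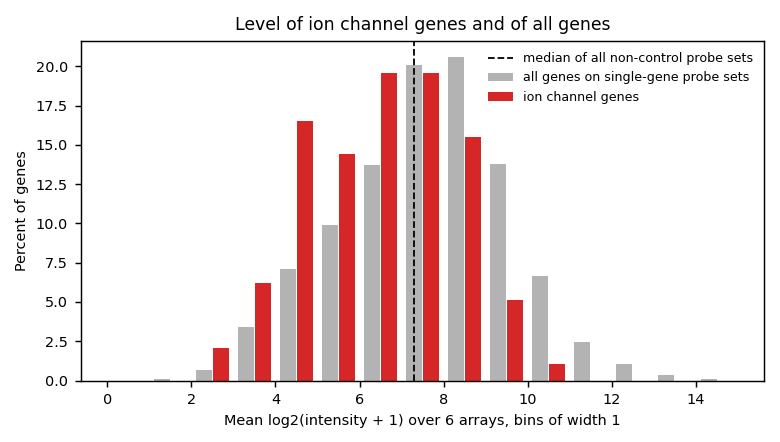
Percent of genes (vertical axis) by mean log2(intensity + 1) over the 6 arrays in bins of width 1 (horizontal axis), for all 11963 genes in grey and the 97 ion channel genes in red; the dashed line is the median of all non-control probe sets. Of the channel genes 34% lay at or above the line, against 59.9% of all genes.

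The members above the median covered every class of channel subunit. They were 5 of 12 inward rectifiers, 3 of 9 two-pore channels, 6 of 25 voltage-gated potassium pore and modifier subunits, 4 of 9 potassium accessory subunits, 4 of 8 calcium-activated potassium channel subunits, 3 of 10 calcium pore subunits, 5 of 11 calcium auxiliary subunits, 2 of 9 sodium pore subunits and 1 of 2 sodium beta subunits.

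Below it lay, among inward rectifiers, KCNJ1, KCNJ4, KCNJ6, KCNJ10, KCNJ13, KCNJ14 and KCNJ16, and among two-pore channels KCNK5, KCNK7, KCNK10, KCNK12, KCNK13 and KCNK15. The voltage-gated potassium subunits below it were KCNA1, KCNA3, KCNA5, KCNA10, KCNB2, KCNC1, KCNC2, KCND1, KCND2, KCNF1, KCNG1, KCNG2, KCNH1, KCNH6, KCNQ1, KCNQ3, KCNS3, KCNV1 and KCNV2. The accessory subunits KCNAB1, KCNE2, KCNE4, KCNE5 and KCNIP2, and KCNMB3, KCNN1, KCNN3 and KCNN4 of the calcium-activated class, were below it as well. Of the calcium channels these were CACNA1B, CACNA1C, CACNA1E, CACNA1F, CACNA1G, CACNA1H, CACNA1S, CACNA2D3, CACNB3, CACNG1, CACNG2, CACNG3 and CACNG5. The sodium channel genes SCN1A, SCN2A, SCN3A, SCN4A, SCN8A, SCN9A, SCN11A and SCN2B completed the group together with KCNQ1DN and KCNQ1OT1.

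Across the day the channel genes spanned a range like that of the other genes. A 24-h cosine was tested with limma's moderated F test, and 0 of 33 passed adjustment over all 7164 genes tested (0% of all genes called), and 1 of 33, KCND3, had an unadjusted p under 0.05, where 5.56% of all genes did. Without moderation the count at that unadjusted threshold was 2, CACNA1I and CACNB1. The median peak-to-trough difference of the fitted curve was 0.44 on the log2 scale for the members, with a range of 0.08 to 1.39, and 0.43 for all genes tested. The median standard error of this difference was 0.31 in both. The span from the lowest to the highest array was under 2-fold for 26 of 33 members and for 72.4% of all genes tested.

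The arrays differed in where members stood highest. The 3 PM array held the highest value for 12 of 33 members (36.4%), against 19.4% of all genes tested. No member was highest at 11 PM, against 14.8% of all genes, and 11 of 33 lay above their own mean there. Fitted peaks fell between 12 h and 16 h for 12 members and between 16 h and 20 h for 7, with 2 to 4 in each of the other 4-h windows. The 3 PM array was also 1 of the 2 with the lowest hybridisation controls. Its median intensity was the highest at 173.4, against 156.5 at 11 PM and 154.1 to 167.5 on the other arrays. The part of either in these counts was not tested.

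**Figure D2:**
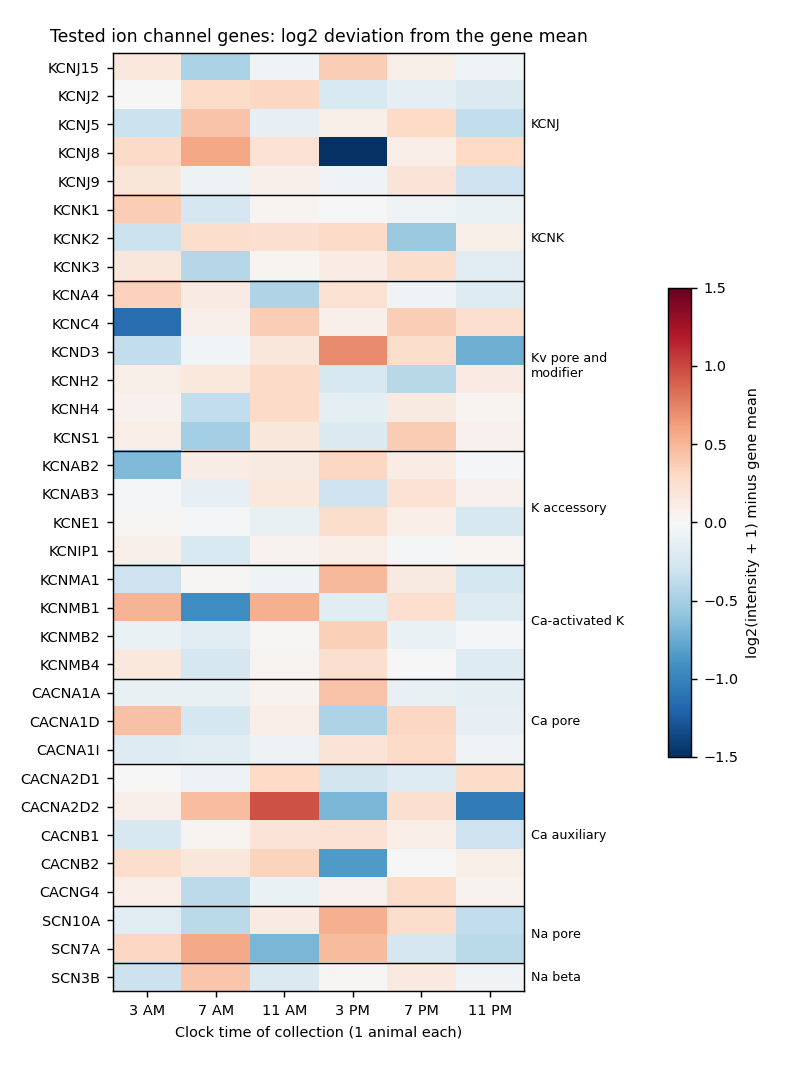
Deviation of log2(intensity + 1) from each gene's own mean (colour) for the 33 tested channel genes (rows, grouped by class) on the 6 arrays (columns, 1 animal each). The deepest blue cell is KCNJ8 at 3 PM, where its intensity was 83.9, and KCND3 is reddest at 3 PM and bluest at 11 PM.

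Inward rectifiers pass potassium inward more readily than outward and steady the resting potential. KCNJ5, which encodes the G-protein-gated channel GIRK4 of the zona glomerulosa, had intensities of 372 at 3 AM, 628.5 at 7 AM, 428 at 11 AM, 494 at 3 PM, 575 at 7 PM and 359 at 11 PM. The 7 AM and 7 PM animals were high and the 3 AM and 11 PM animals low, so the daytime and night arrays overlapped. Daytime here means 7 AM, 11 AM and 3 PM, and night 7 PM, 11 PM and 3 AM. The daytime minus night difference was 0.26 ± 0.25 (SE, log2, 3 arrays against 3) and the fitted peak-to-trough difference 0.38 ± 0.37 (SE), neither past limma's unadjusted threshold.

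The second KCNJ5 probe set gave a clearer slope than the chosen one. It read 329 at 3 AM, 491 at 7 AM, 414 at 11 AM, 314 at 3 PM, 283 at 7 PM and 204 at 11 PM, lower on each later array from 7 AM to 11 PM. Its peak-to-trough difference was 1.05 ± 0.30 (SE, log2) with the peak at 9.11 h, and its daytime minus night difference was 0.58 ± 0.25. Tested probe set by probe set, these passed limma's unadjusted threshold (unadjusted p = 0.0263 and 0.0492) but not adjustment over all probe sets (adjusted p = 0.853 and 0.895). The third probe set above the median read 276 at 3 AM, 449.6 at 7 AM, 392 at 11 AM, 315 at 3 PM, 327 at 7 PM and 232 at 11 PM, with a peak-to-trough difference of 0.73 at 10.2 h. It passed no threshold (unadjusted p = 0.121 in the cosine fit and 0.0665 in the daytime contrast, by limma). All 3 were highest at 7 AM and lowest at 11 PM. Probe set names ending in _x_at, as on 2 of these 3, mark sets with probes that also match other sequences. The remaining KCNJ5 probe set lay below the median and read 111 at 7 AM and 36.4 to 52.6 on the other arrays.

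KCNJ8 encodes Kir6.1, the pore of the ATP-sensitive channel of vascular cells. Its chosen probe set read 289 at 3 AM, 355 at 7 AM, 276 at 11 AM, 83.9 at 3 PM, 254 at 7 PM and 291 at 11 PM, so that the 3 PM value stood alone below the rest. The second probe set read 256 at 3 AM, 302 at 7 AM, 78.3 at 11 AM, 238 at 3 PM, 183 at 7 PM and 239.8 at 11 PM, with the low value at 11 AM instead. The dip at a single array was thus not shared between probe sets, and the fitted peak-to-trough difference of 1.39 ± 0.54 on the chosen one was not past limma's unadjusted threshold (unadjusted p = 0.0946). Without the 3 PM array that difference was 0.38 (unadjusted p = 0.534 by limma), and it passed the unadjusted threshold without 11 AM (1.70, unadjusted p = 0.0475) or 7 PM (1.93, unadjusted p = 0.0309). ABCC9, the sulphonylurea receptor subunit that assembles with KCNJ8, ran from 133.5 at 3 AM to 454 at 3 PM and was highest on the array where the chosen KCNJ8 probe set was lowest.

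KCNJ2, the strong rectifier Kir2.1, read 395 at 3 AM, 476 at 7 AM, 486 at 11 AM, 336 at 3 PM, 356 at 7 PM and 337 at 11 PM. It was high on the 7 AM and 11 AM arrays, and lowest at 3 PM and 11 PM, which were near equal. Its fitted peak-to-trough difference was 0.56 ± 0.27 with a peak at 8.18 h. KCNJ15 (Kir4.2) spanned 298 at 7 AM to 536 at 3 PM and KCNJ9 (the G-protein-gated GIRK3) 142 at 11 PM to 202 at 7 PM. Their daytime minus night differences were -0.12 ± 0.24 and -0.05 ± 0.21. KCNJ14, just under the median, ran from 123 at 3 AM to 174 at 3 PM.

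Two-pore channels carry the background potassium current. KCNK2, the stretch- and lipid-gated channel TREK-1 known from cortisol-secreting adrenocortical cells of cattle, read 484 at 3 AM, 726 at 7 AM, 718 at 11 AM, 740.2 at 3 PM, 413 at 7 PM and 645 at 11 PM. All 3 daytime arrays lay between 718 and 740.2 and all 3 night arrays below them, with 11 PM nearest. The daytime mean was 1.44 times the night mean (log2 0.53 ± 0.21, SE, 3 arrays against 3), by limma's moderated test unadjusted p = 0.0355, adjusted p = 0.848.

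KCNK2 was the 1 member of 33 higher by day at an unadjusted p under 0.05 (2.95% of all genes were), and the 1 of 33 whose daytime and night arrays did not overlap in that direction (5.61% of all genes). An exact test of 3 arrays against 3 cannot go below 0.1. Leaving out 1 array at a time gave differences of 0.38, without 7 PM, to 0.70, without 11 PM. The unadjusted threshold held in the fit without 11 PM and was missed in the other 5. It was also missed with arrays centred on their median (unadjusted p = 0.0549 by limma), with no level filter (0.0568) and with age as a covariate (0.0532). The cosine fit peaked at 10.2 h with a peak-to-trough difference of 0.59 ± 0.35 (unadjusted p = 0.308).

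Markers of some other cells, not of all, moved with this contrast. Of all genes tested, 49.1% were higher by day. All 11 tested chromaffin genes were higher by day, with a summed intensity of the 15 on the array between 29150 and 46460 by day and between 18520 and 28020 by night. All 6 neuronal markers were higher by day, with sums of 3147 to 3231 against 1874 to 2725. Of 11 steroidogenic genes 2 were higher by day, with sums of 70740 to 75690 against 60750 to 95030. All 3 tested adipocyte genes were lower by day, with sums over 6 genes of 1588 to 2576 against 2490 to 4166. Among the other lists 2 of 6 endothelial, 1 of 4 macrophage, 0 of 2 Schwann and glial and 3 of 7 smooth muscle genes were higher by day. None of the markers was at 0. Their part in the KCNK2 difference was not tested, and in whole glands fewer cells of a type and less RNA per cell cannot be told apart.

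KCNK3, the acid-sensitive channel TASK-1 of the zona glomerulosa, read 1127 at 3 AM, 739.5 at 7 AM, 1026 at 11 AM, 1077 at 3 PM, 1199 at 7 PM and 897.5 at 11 PM. The 7 AM animal was lowest and the daytime and night arrays overlapped, with a difference of -0.19 ± 0.22 (SE, log2). KCNK1 (TWIK-1) spanned 141 at 7 AM to 217 at 3 AM, with a difference of -0.14 ± 0.21. Both therefore lay slightly lower by day, opposite to KCNK2, but the errors include 0 and the contrast between the 3 channels was not tested.

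Voltage-gated potassium channels repolarise the cell after an action potential. KCND3, the rapidly inactivating A-type channel Kv4.3, read 314 at 3 AM, 394 at 7 AM, 457 at 11 AM, 662 at 3 PM, 487 at 7 PM and 243 at 11 PM. Each array from 3 AM to 3 PM was higher than the one before, and values were lower again at 7 PM and 11 PM. The fitted peak was at 13.8 h and 2.26 times the trough (log2 1.17 ± 0.32, SE), by limma's moderated F test unadjusted p = 0.0216, adjusted p = 0.836. In an exact test over the 60 circular orders of the arrays, where the smallest possible p is 0.0167, R2 of 0.809 gave p = 0.1 (adjusted p = 0.881 over all genes tested).

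Single arrays carried part of the KCND3 curve. The peak-to-trough difference was 0.99 (unadjusted p = 0.128 by limma) without the 3 PM array and 0.92 (unadjusted p = 0.059) without 11 PM, and 1.15 to 1.45 without any other array. The daytime minus night difference of KCND3 was 0.56 ± 0.30 (SE, log2, unadjusted p = 0.0956 by limma), with overlapping arrays. The other 3 KCND3 probe sets lay below the median. One of them read 27.6 at 3 AM, 21.7 at 7 AM, 58.4 at 11 AM, 73.9 at 3 PM, 26.9 at 7 PM and 26.0 at 11 PM, with a peak at 13.7 h, another 86.9 at 3 AM, 123.5 at 7 AM, 149.9 at 11 AM, 160.5 at 3 PM, 178 at 7 PM and 165 at 11 PM, peaking at 16.9 h, and the third 30.1 at 3 AM, 29.5 at 7 AM, 24.4 at 11 AM, 3.5 at 3 PM, 31.5 at 7 PM and 2.6 at 11 PM, peaking at 7.04 h. This last one was near its lowest at 3 PM, where the chosen probe set was highest. KCNIP1, a calcium-binding subunit of Kv4 channels, spanned only 189.9 at 7 AM to 237 at 3 PM.

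The remaining members of this class passed no threshold. KCNC4 (Kv3.4) read 79.0 at 3 AM, 185 at 7 AM, 228 at 11 AM, 185 at 3 PM, 228 at 7 PM and 211 at 11 PM, with 3 AM alone below the others. KCNS1, a silent subunit that modifies Kv2 channels, read 584 at 3 AM, 383 at 7 AM, 613 at 11 AM, 469 at 3 PM, 709.6 at 7 PM and 570.3 at 11 PM, lowest at 7 AM, with a daytime minus night difference of -0.37 ± 0.23. KCNH2, the hERG channel, spanned 257 at 7 PM to 421 at 11 AM, KCNH4 144.5 at 7 AM to 229 at 11 AM and KCNA4 (Kv1.4) 187 at 11 AM to 324 at 3 AM. A second, dimmer KCNH2 probe set read 22.6 at 3 AM, 324 at 7 AM, 190.4 at 11 AM, 129 at 3 PM, 85.1 at 7 PM and 60.8 at 11 PM and had the widest spread of the pair, with its low at 3 AM and its high at 7 AM. On it all daytime arrays exceeded all night arrays. The difference was 2.0 ± 0.56 (SE, log2, unadjusted p = 0.00998 by limma, no level filter). This set lay below the median and was picked after its values were seen. With no filter, 5.34% of all genes were higher by day without overlap on their chosen probe sets. By limma 3.03% were higher by day at an unadjusted p under 0.05. On the chosen KCNH2 probe set the arrays overlapped, with a difference of 0.14 ± 0.23 (unadjusted p = 0.567 by limma).

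Accessory subunits adjust the surface level and gating of potassium channel pores. KCNAB2, a beta subunit of Kv1 channels, read 146 at 3 AM, 251 at 7 AM, 254 at 11 AM, 288 at 3 PM, 251 at 7 PM and 227 at 11 PM, and the 3 AM animal stood below the other 5. Its fitted peak-to-trough difference was 0.71 ± 0.31 at 14.5 h (unadjusted p = 0.138 by limma's moderated F test, p = 0.0333 in the exact order test, adjusted p = 0.874). Without the 3 AM array the difference was 0.31 (unadjusted p = 0.635 by limma). KCNAB3 spanned 155 at 3 PM to 223 at 7 PM. KCNE1, the minK partner of KCNQ1, spanned 179 at 11 PM to 254 at 3 PM. KCNQ1 itself lay below the median and ran from 56.4 at 7 PM to 162 at 7 AM.

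Calcium-activated potassium channels couple calcium entry to repolarisation in chromaffin and smooth muscle cells. KCNMA1, the pore of the large-conductance BK channel, read 692 at 3 AM, 864 at 7 AM, 818.5 at 11 AM, 1199.7 at 3 PM, 939 at 7 PM and 714 at 11 PM. On this chosen probe set the 3 PM animal was highest and the 2 night arrays at 3 AM and 11 PM lowest. The fitted difference was 0.64 ± 0.29 at 14.7 h (unadjusted p = 0.149 by limma), and 0.41 without the 3 PM array. A second probe set above the median spanned 126 at 7 PM to 184 at 3 AM, read 180.8 at 3 PM and peaked at 9.11 h. The third lay below the median and was lowest at 3 PM, at 66.4, with 152.6 at both 7 AM and 11 AM. Neither was highest at 3 PM.

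The BK beta subunits did not share one course. KCNMB1, the smooth muscle beta subunit, read 531 at 3 AM, 195 at 7 AM, 537 at 11 AM, 330.5 at 3 PM, 443 at 7 PM and 326 at 11 PM, with the 7 AM animal lowest and 3 AM and 11 AM near equal at the top. KCNMB2 spanned 244 at 7 AM to 349 at 3 PM and KCNMB4, the neuronal one, 385 at 7 AM to 543 at 3 PM. Daytime minus night differences were -0.38 ± 0.36 for KCNMB1, 0.15 ± 0.20 for KCNMB2 and 0.02 ± 0.21 for KCNMB4. The KCNMB1 difference was -0.74 without 11 AM, past limma's unadjusted threshold (unadjusted p = 0.0477). It was -0.01 without 7 AM (unadjusted p = 0.97 by limma) and between -0.57 and -0.22 without any other array. Smooth muscle markers also differed between single arrays, with a summed intensity of the 9 genes from 4014 at 11 PM to 9430 at 7 PM, and 5021 at 7 AM. Their part in the KCNMB1 values was not tested. KCNN1 and KCNN4, small- and intermediate-conductance channels, lay below the median and spanned 114 at 3 AM to 197 at 3 PM and 19.6 at 11 AM to 42.8 at 3 AM.

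**Figure D3:**
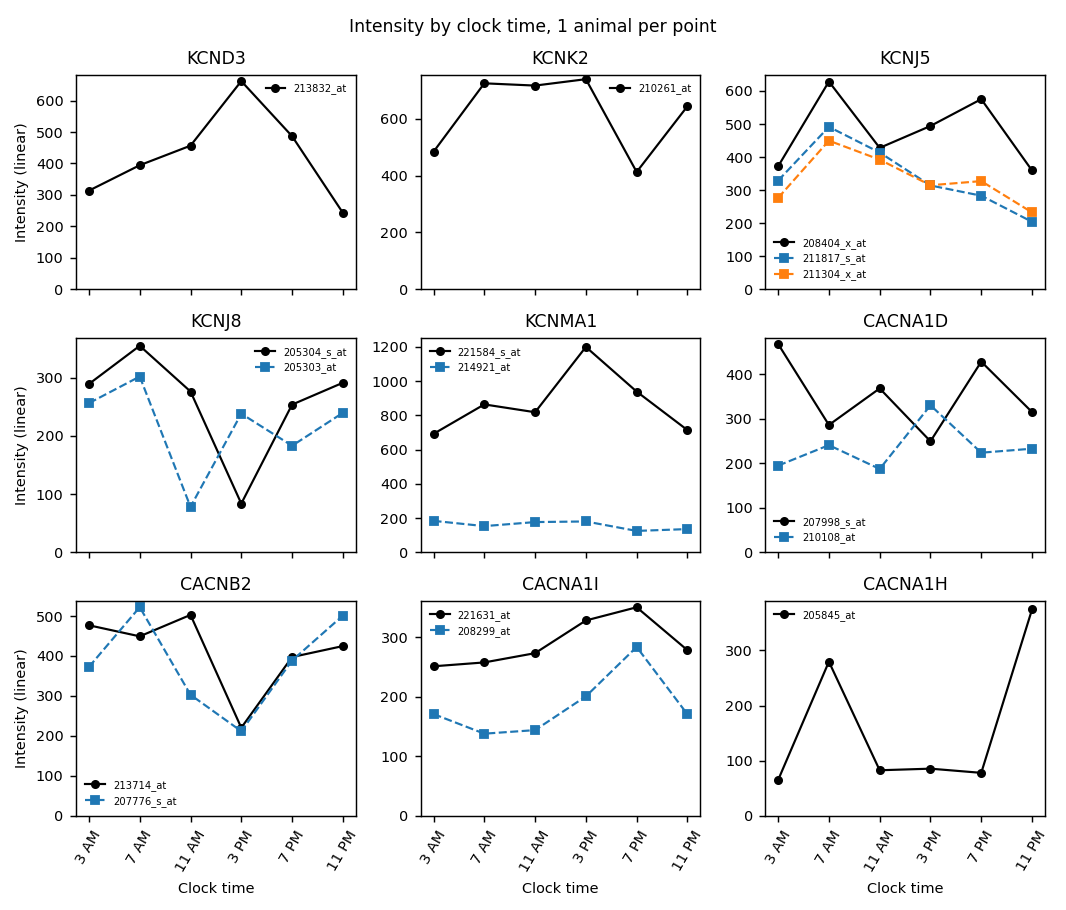
Intensity on a linear scale (vertical axis) by clock time (horizontal axis) for 9 channel genes, 1 animal per point; solid black lines are the chosen probe sets and dashed lines other probe sets of the gene that exceeded the level median. CACNA1H lies below that median and is drawn because its 7 AM and 11 PM animals stood apart, at 280 and 374.

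Among calcium channel pores, CACNA1D encodes the L-type channel Cav1.3 of glomerulosa and chromaffin cells. Its chosen probe set read 468 at 3 AM, 286 at 7 AM, 368 at 11 AM, 249.6 at 3 PM, 428.5 at 7 PM and 315 at 11 PM, with 3 AM and 7 PM high and 3 PM low. The daytime minus night difference was -0.42 ± 0.23 (SE, log2; unadjusted p = 0.106, adjusted p = 0.9 by limma), and without 11 PM -0.59 (unadjusted p = 0.0428). The second probe set read 195 at 3 AM, 241 at 7 AM, 187.5 at 11 AM, 330.5 at 3 PM, 224 at 7 PM and 233 at 11 PM, highest at 3 PM, with a difference of 0.18 ± 0.24. The 2 probe sets therefore disagreed in sign and no direction is given for CACNA1D.

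CACNA1I, a T-type channel that opens near the resting potential, read 251 at 3 AM, 258 at 7 AM, 273 at 11 AM, 328 at 3 PM, 351 at 7 PM and 278 at 11 PM. Its second probe set read 171 at 3 AM, 138 at 7 AM, 144 at 11 AM, 201 at 3 PM, 284 at 7 PM and 170.5 at 11 PM. Both were highest in the 7 PM animal, the youngest. The first was lowest in the 12-year-old animals at 3 AM and 7 AM, while on the second the 3 AM value was close to that at 11 PM and above that at 11 AM. The fitted difference was 0.48 ± 0.25 at 17.3 h on the first (unadjusted p = 0.23 by limma's moderated F test, p = 0.0333 in the exact order test, adjusted p = 0.874) and 0.85 at 19 h on the second. Fitted age had its trough at 18.2 h, so clock time and age cannot be told apart here.

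CACNA1A, the P/Q-type channel of secretory cells, read 229 at 3 AM, 228 at 7 AM, 257 at 11 AM, 332 at 3 PM, 228.5 at 7 PM and 222 at 11 PM, and the 3 PM animal alone stood above the rest. The other calcium pore genes lay below the median. CACNA1H, the T-type channel Cav3.2 that carries low-voltage calcium current in the glomerulosa, read 64.7 at 3 AM, 279.6 at 7 AM, 82.4 at 11 AM, 85.3 at 3 PM, 77.7 at 7 PM and 374 at 11 PM, with the 7 AM and 11 PM animals apart from the other 4. CACNA1C, the L-type channel Cav1.2, read 103.5 at 3 AM, 113 at 7 AM, 155 at 11 AM, 184 at 3 PM, 93.6 at 7 PM and 90.6 at 11 PM, and all 3 daytime arrays exceeded all 3 night arrays. A second, dimmer CACNA1C probe set ran from 8.1 at 11 PM to 111.4 at 3 PM, with a difference of the same sign. CACNA1G spanned 42.3 at 7 AM to 77.3 at 3 PM on the chosen of its 5 probe sets, all below the median. Another of these ran more widely, from 9.1 at 7 AM to 99.2 at 7 PM. CACNA1B, the N-type channel, spanned 14.5 at 3 PM to 55.9 at 11 AM.

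Auxiliary subunits of the CACNA2D and CACNB families carry the pores to the membrane and tune them. CACNG genes were classed with them by symbol. CACNA2D2 read 374.5 at 3 AM, 491 at 7 AM, 691 at 11 AM, 219.9 at 3 PM, 419.5 at 7 PM and 171 at 11 PM, high at 11 AM and low at 11 PM and 3 PM. Its fitted difference of 1.30 ± 0.57 was not past limma's unadjusted threshold (unadjusted p = 0.142). The exact order test gave p = 0.417 (adjusted p = 0.933). The fitted difference was 1.67 without the 3 PM array and 2.23 without 7 PM, both past limma's unadjusted threshold (unadjusted p = 0.0226 and 0.00634). Without 11 AM it was 0.87 and without 11 PM 0.78 (unadjusted p = 0.435 and 0.451). CACNB2 read 477 at 3 AM, 449 at 7 AM, 503 at 11 AM, 220.2 at 3 PM, 397 at 7 PM and 425 at 11 PM, and its second probe set 373 at 3 AM, 522 at 7 AM, 303 at 11 AM, 211.5 at 3 PM, 389 at 7 PM and 501 at 11 PM. Both CACNB2 probe sets were lowest in the 3 PM animal, with fitted peaks at 4.24 h and 2.30 h.

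CACNB1 read 232 at 3 AM, 283 at 7 AM, 315 at 11 AM, 318 at 3 PM, 294 at 7 PM and 220.4 at 11 PM, a smooth arc with R2 of 0.922 and a peak-to-trough difference of 0.56 ± 0.25 (unadjusted p = 0.155 by limma's moderated F test, p = 0.05 in the exact order test, adjusted p = 0.874). Both other CACNB1 probe sets lay below the median. The first peaked at 11.5 h with a difference of 1.63 (unadjusted p = 0.0135 by limma, no level filter). The second showed no such arc, reading 164 at 7 AM, 110 at 11 AM, 233 at 3 PM, 72.4 at 7 PM and 207 at 11 PM (unadjusted p = 0.905). CACNA2D1, the gabapentin-binding subunit, spanned 298 at 3 PM to 441.5 at 11 AM. CACNB3 lay below the median, and its chosen probe set spanned 108 at 11 PM to 175 at 7 AM. Its second probe set ran the other way, from 46.7 at 7 AM to 258.6 at 11 PM. Their daytime minus night differences were 0.20 ± 0.24 and -0.68 ± 0.52 (SE, log2, no level filter), so no direction is given for CACNB3. CACNG4 spanned 1441 at 7 AM to 2284 at 7 PM with a daytime minus night difference of -0.29 ± 0.20. Its second probe set read only 19.5 to 28.3 and differed in sign, so the CACNG4 values rest on 1 probe set.

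Sodium channels start the action potential of chromaffin cells. SCN10A, the tetrodotoxin-resistant channel Nav1.8 best known from sensory neurons, read 489.5 at 3 AM, 411 at 7 AM, 594 at 11 AM, 790.0 at 3 PM, 654 at 7 PM and 423 at 11 PM. It had the second smallest p of the members (log2 0.85 ± 0.29, SE, peak at 15.5 h; unadjusted p = 0.06, adjusted p = 0.836 by limma). Without 3 AM the difference was 1.21 and passed the unadjusted threshold (unadjusted p = 0.0225 by limma), and without 3 PM it was 0.70 (unadjusted p = 0.272). SCN7A, a sodium-sensing relative that is not gated by voltage, read 222 at 3 AM, 264 at 7 AM, 111 at 11 AM, 248 at 3 PM, 149 at 7 PM and 135 at 11 PM, with high and low values scattered over the day. SCN3B, a beta subunit of neuroendocrine cells, spanned 156 at 3 AM to 260.0 at 7 AM.

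Both sodium channels that chromaffin cells are known for lay below the median. SCN3A (Nav1.3) read 24.5 at 3 AM, 394 at 7 AM, 135 at 11 AM, 107 at 3 PM, 152 at 7 PM and 52.8 at 11 PM, the widest span of all 97 members at log2 3.95. The summed chromaffin markers were 18520 at 3 AM, 46460 at 7 AM, 29150 at 11 AM, 34700 at 3 PM, 28020 at 7 PM and 25550 at 11 PM. SCN3A and these markers were thus both highest at 7 AM and lowest at 3 AM, and the part of chromaffin content in SCN3A was not tested. SCN9A (Nav1.7) read 4.8 at 3 AM to 34.1 at 7 PM, dim on every array.

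By day against night the members split evenly. Of 33, 17 were higher by day and 16 lower, against 49.1% of all genes higher, and the median difference was 0.02 (log2) for the members and 0 for all genes tested. By class, 3 of 4 calcium-activated potassium genes and all 3 tested sodium channel genes were higher by day. So were 3 of 6 voltage-gated potassium subunits, 2 of 4 accessory subunits, 2 of 5 inward rectifiers, 1 of 3 two-pore channels and 3 of 8 calcium channel genes. The sodium channel differences were only 0.15 to 0.23 (log2) with a median SE of 0.28, none past limma's unadjusted threshold. By limma 0 of 33 passed adjustment over all genes (0% of all genes called). At an unadjusted p under 0.05, 0 of 33 were lower by day (2.44% of all genes). No member lay lower by day without overlap, against 5.26% of all genes.

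**Figure D4:**
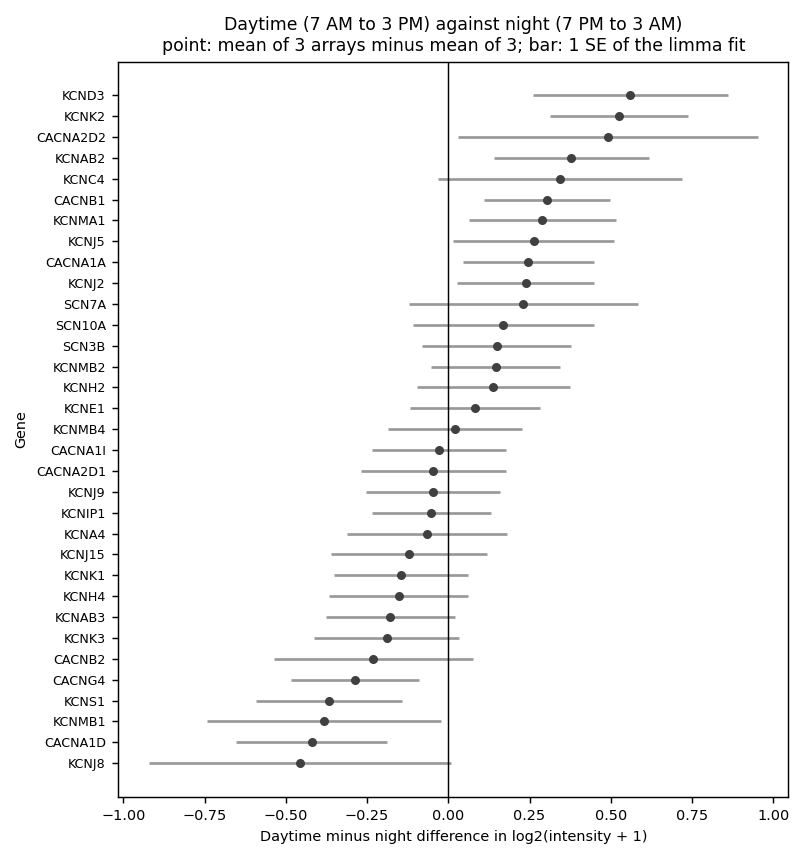
Daytime (7 AM, 11 AM, 3 PM) minus night (7 PM, 11 PM, 3 AM) difference in log2(intensity + 1) (horizontal axis) for each of the 33 tested channel genes (vertical axis), with bars of 1 SE of the limma fit, 3 arrays against 3. Of the 33 points 17 lie above 0, and KCND3 and KCNK2 lie farthest above it.

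With all 97 members tested and no level filter, 5 had an unadjusted p under 0.05 in the cosine fit by limma (5.19% of all genes did), namely KCND3, KCNN1, KCNH1, KCNV2 and CACNG5. In the daytime contrast 3 were higher by day (3.03% of all genes), CACNA1C, CACNA2D3 and CACNG5, and KCNAB1 was lower (2.03% of all genes). These shares of 5.15%, 3.09% and 1.03% of members were near or below those of all genes. CACNA2D3, an auxiliary subunit, read 27.7 at 3 AM, 195 at 7 AM, 107 at 11 AM, 154 at 3 PM, 30.0 at 7 PM and 94.8 at 11 PM, and CACNG5 35.3 at 3 AM, 111 at 7 AM, 118 at 11 AM, 113 at 3 PM, 57.8 at 7 PM and 52.1 at 11 PM. KCNAB1 read 196 at 3 AM, 96.9 at 7 AM, 117 at 11 AM, 135 at 3 PM, 199.9 at 7 PM and 148 at 11 PM, with all 3 daytime arrays under all 3 night arrays. Over the 97 members, daytime and night arrays did not overlap for 5 that were higher by day (5.34% of all genes) and for 3 that were lower (4.87%).

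Transporters and other channels that work with these genes gave a similar picture. Of 88 listed partner genes 63 had a probe set of their own and 39 entered the tests, and the others are not analysed here. By limma 1 of the 39 had an unadjusted p under 0.05 in the cosine fit (5.56% of all genes), and it was also the 1 lower by day (2.44%). This was ATP1B2, a beta subunit of the sodium-potassium pump, which read 195 at 3 AM, 166 at 7 AM, 175 at 11 AM, 126 at 3 PM, 308 at 7 PM and 360.0 at 11 PM. It peaked at 22.5 h, with a daytime minus night difference of -0.85 ± 0.27 (SE, log2, unadjusted p = 0.0112, adjusted p = 0.766).

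The pump's other tested subunits included ATP1B1, which ran from 1797 at 3 AM to 2922 at 7 AM. ATP2B3, a plasma membrane calcium pump that is another gene of aldosterone-producing adenomas, spanned 479 at 7 PM to 782 at 3 AM. CHRNA3, the nicotinic receptor subunit through which the splanchnic nerve excites chromaffin cells, spanned 688 at 11 PM to 911 at 7 AM. ITPR1, the calcium release channel opened by inositol trisphosphate, spanned 909 at 3 AM to 1773.5 at 7 AM. Counts by list of genes higher by day were 4 of 6 for the sodium-potassium pump, 4 of 9 for calcium pumps, exchangers and release channels, 3 of 5 for calmodulin and its kinases, 3 of 7 for nicotinic receptors, 4 of 5 for HCN channels and potassium channel partners and 5 of 7 for chloride channels.

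More than 1 probe set above the median was available for 6 members, giving 7 pairs with the chosen one. The sign of the daytime minus night difference was shared in 6 of 7 pairs. The fitted peaks lay within 6 h in 6 of 7, CACNA1D being the exception in both. KCNJ5 supplied more than 1 of these pairs, and no share over all genes is given beside them. Such pairs need not share a course: the KCNJ8 probe sets were lowest on different arrays, and the KCNMA1 peaks lay 5.59 h apart.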

How the data were processed

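RNA of the left adrenal of 6 animals was hybridised to an Affymetrix human array, per the labels' protocols. The deposited values are intensities on a linear scale with 1 value per probe set, and their 2% trimmed mean was 325.04 to 325.09 on every array. The summary software, the arrays' detection calls and a genome build were not given in the labels or file headers used here, so coordinates and sequences are not used here.

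Of 22283 probe sets, 68 were controls, and 19065 named a single gene in the platform annotation, which can be old; 1043 that named several were not used. Values were taken as log2(intensity + 1), which understates changes of low genes. A gene was tested where its brightest probe set had a mean of at least 7.30, which left 7164 of 11963 genes.

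With limma 3.58.1 in R 4.3.3, a 24-h cosine was tested with 3 residual degrees of freedom and the daytime minus night difference with 4, with Benjamini-Hochberg adjustment over all genes tested at a threshold of 0.05. The code was checked on simulated data. An exact test compared R2 over the 60 circular orders of the arrays. Its p-values were adjusted over all 7164 genes, since several genes given with it were picked by the cosine fit. The same exact test gave p = 0.117 for SCN10A and KCNMA1, 0.133 for KCNJ8, 0.2 for KCNJ2 and 0.5 for KCNK2. With 1 animal per array, p-values measure departure from the curve or spread within day and night, not spread between animals at a clock time. The number of arrays limits the precision.

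The members and lists were chosen with earlier results of these data known. The symbol rule was read with the digit needed for SCN only, since no symbol has one straight after KCN or CACN. Genes given most fully were the 8 with the smallest p in the cosine fit, the 3 with the smallest p in each daytime direction, the smallest p of each class, the 2 members on each side of the level median, and 22 of 27 listed adrenal channel genes that had a probe set. Others named with values were chosen after their values were seen. Alternatives were no filter or a stricter one, a pseudocount of 16, quantile or median scaling, every probe set, other variance priors, age as a covariate and leaving out each array.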

Additional observations from a re-analysis of the deposited data

How the results depend on the processing

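No paired analysis was possible because only 1 animal was sampled per clock time. The count of 0 members past adjustment held in both fits under every alternative run, where the unadjusted counts were 0 to 5. Members with an unadjusted p under 0.05 in the cosine fit, 1 as reported, were 5 with no level filter, and 2 with every probe set, with the stricter filter, with a trended robust prior, with age as a covariate and without moderation. Leaving out 1 array gave 0, without 11 PM, to 3, without 11 AM or 7 PM. Members higher by day, 1 as reported, were 3 with no filter, 0 with arrays centred on the median and 2 with every probe set. With an array left out they were 0 to 1, with 0 without 3 AM or 7 AM. The member called then changed with the array: it was CACNA2D2 without 3 PM, KCND3 without 7 PM and KCNK2 without 11 PM. Members lower by day, 0 as reported, were 1 with no filter, and 0 to 1 with an array left out, with 1 without 11 AM or 11 PM. No value changed sign past the threshold. Of the values of the fully described genes, 344 in the cosine fit kept their direction and side of the threshold, 11 passed it anew and 4 lost it; in the daytime contrast these were 323, 5 and 8. Beyond the number of genes tested and arrays used, the cause was not tested. Members at or above the level median were 33, or 25 with the mean over a gene's probe sets. With 6 arrays and no detection calls, dim probe sets could not be separated from background.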
